A study of Homo sapiens with 4 samples.

Results

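The genes described here are the BCL2 family, the caspases and the death effectors that act with them, 32 genes chosen by symbol from the 18132 that had a probe set of their own on an expression array. Each gene was taken at the probe set, among those paired with it alone, that had the highest mean over the 4 arrays. All 32 were measured, on 134 probe sets in all. They comprise 7 anti-apoptotic genes, 24 pro-apoptotic genes and DFFA, whose protein both restrains and folds the nuclease DFFB and which was placed in neither class. The cells were OE33, an established human line from an adenocarcinoma of the oesophagus, and the total RNA was measured on Affymetrix Human PrimeView arrays, which give a log2 signal per probe set. Knockdown cells received a pool of siRNAs against ARID1A (ON-TARGETplus SMARTpool ARID1A), part of the SWI/SNF complex that remodels chromatin, and mock cells received ON-TARGETplus Non-targeting Pool. Both groups were transfected with lipid at a final siRNA concentration of 50 nM, 24 hours after plating, and were harvested 48 hours after transfection, with 2 biological replicates each. One siRNA pool was used against ARID1A, so loss of ARID1A and other effects of those siRNAs cannot be told apart, and no dying or surviving cells were counted in these files.

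Apoptosis by the mitochondrial route is governed by the balance of BCL2 proteins. BCL2, BCL-XL (BCL2L1), BCL-W (BCL2L2), MCL1 and A1 (BCL2A1) hold the effectors BAX and BAK1 in check, and the BH3-only proteins bind and relieve them. Once the outer mitochondrial membrane opens, cytochrome c (CYCS) assembles with APAF1 and caspase-9 into the apoptosome, while SMAC (DIABLO) and HTRA2 relieve the block that XIAP places on caspases. Death receptors act through FADD and caspase-8, a step held back by c-FLIP (CFLAR), and cleavage of BID links that route to the mitochondria. Many of these proteins are controlled after transcription, so an mRNA level is one layer of their regulation only.

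ARID1A, the target of the siRNAs, stood at 7.53 and 7.53 in the knockdown, against 9.28 and 9.33 in mock arrays, a log2 change of -1.78 (SE 0.0718, limma adjusted p = 0.0218). The epithelial markers EPCAM, CDH1, KRT8, KRT18, KRT19, ELF3 and GRHL2 all lay at or above the 59.9th percentile of probe set signals, which fits the labelled epithelial line, with a change of 0.24 (adjusted p = 0.236) for ELF3. The highest percentile was 45.5 among 6 fibroblast markers, 56.9 among 5 leukocyte markers and 52.8 among 4 endothelial markers. At an unadjusted p under 0.05, 7.25% of all genes were lower in the knockdown and 9.76% higher. Of the markers, 3 of the 4 endothelial, 1 of the 5 leukocyte and 1 of the 6 fibroblast genes were lower, and none of these groups held a higher one. Of the 7 epithelial markers 1, ELF3, was higher and none lower. The summed log2 level of the endothelial markers was 22.0 and 21.9 in the knockdown against 22.6 and 22.8 in the mock arrays. That of the leukocyte markers was 24.7 and 25.0 against 25.2 and 25.3, and that of the fibroblast markers 26.0 and 25.1 against 26.0 and 26.6. The excess of the 3′ over the 5′ probe set of the beta-actin control, a measure of RNA integrity, was 1.21 and 1.10 for knockdown (log2 units), against 1.04 and 0.995 for mock. The same excess for the GAPDH control was 0.201 and 0.215 against 0.199 and 0.211, with overlapping groups. All samples were labelled as the OE33 line, so the sums for markers of other cell types are not read as numbers of such cells. The part of these shifts in the small differences of the death genes was not tested.

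No member of the group passed the test. In limma, over all 49293 probe sets, 0 of the 32 genes had an adjusted p under 0.05, and the smallest was 0.208, for DFFA. The share of all genes that passed was 0.403%. At an unadjusted p under 0.05, 6 members were higher in the knockdown, against 9.76% of all genes, and 0 were lower, against 7.25%. The 6 were CFLAR, BCL2L13, BAD, BIK, BCL2L11 and DFFA, which are 18.8% of the members. Their log2 changes ran from 0.19 to 0.26, or 1.14-fold to 1.19-fold. Of the 134 probe sets, 20 gave a higher value at an unadjusted p under 0.05 (14.9%, against 9.23% of all one-gene probe sets), and 2 gave a lower one, against 7.09%. None of the 134 passed the test, and the smallest adjusted p was 0.0822, at a probe set of BIK. Both knockdown arrays stood above both mock arrays for 13 members, against 25.8% of all genes, and below them for 6, against 23.6%. For the other 13 the arrays of the groups overlapped.

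**Figure D1:**
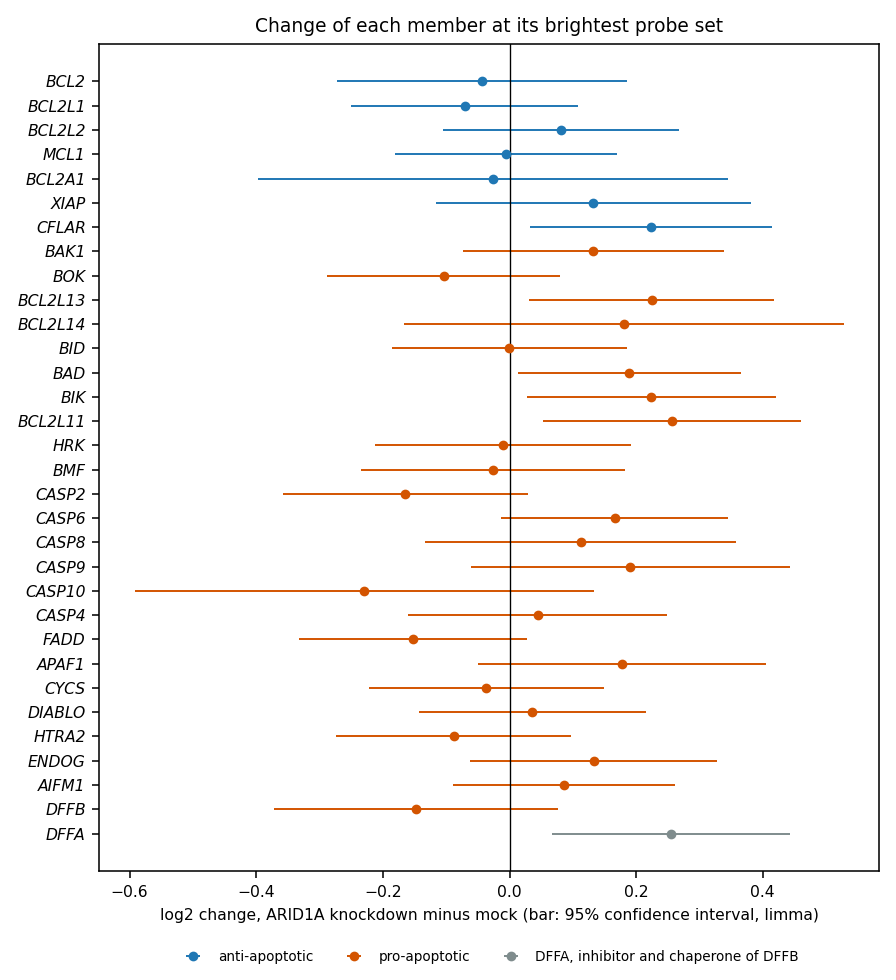
Log2 change of each of the 32 genes (x axis, ARID1A knockdown minus mock) at its brightest probe set, with points for the estimate and bars for its 95% confidence interval from limma, 2 arrays a group. No estimate lies beyond 0.26 above or -0.23 below 0, and the intervals of 6 genes leave out 0, all on the higher side.

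At the brightest probe set of each gene most intervals were narrow enough to bound the change. For 30 of the 32 members the 95% confidence interval there lay inside a log2 change of -0.5 to 0.5, against 86.3% of all genes. The exceptions were BCL2L14 (-0.17 to 0.53) and CASP10 (-0.59 to 0.13), both dim signals, at the 21.9th and 42.4th percentiles. At its brightest probe set no member had a change over 0.5 in either direction, against 339 of all 18132 genes. Of all 134 probe sets of the members, 111 had an interval inside the bound (82.8%, against 85.4% of all probe sets). Among those outside it were 11754121_a_at of BIK (0.27 to 0.64) and 11754126_x_at of CFLAR (0.25 to 0.63). Others were 11739517_x_at of DFFA (0.20 to 0.57) and 11759514_at of BCL2L1 (-0.53 to -0.10).

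The medians of anti-apoptotic and pro-apoptotic genes lay close together. Of the 7 anti-apoptotic genes 3 had a positive change and the median was -0.01, and of the 24 pro-apoptotic genes 14 had a positive change and the median was 0.07. The median over all 32 was 0.06, and over all 18132 genes it was 0.00, with 48.6% of them positive. Relative to the mock mean, the median of the pro-apoptotic genes was 0.057 and 0.045 in the knockdown arrays, against 0.015 and -0.015 in mock arrays. For the anti-apoptotic genes it was 0.034 and 0.0057 in the knockdown, against -0.0035 and 0.0035 in mock arrays. The order of the medians turned when probe sets with shared probes were left out (0.020 for the anti-apoptotic and 0.015 for the pro-apoptotic genes), when all probe sets of a gene were averaged (0.032 and 0.0062), and without dim probe sets (0.082 and 0.065).

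Among the BCL2-like survival genes, none passed the test. MCL1, a short-lived survival protein, read 11.44 and 11.46 in the knockdown arrays, against 11.45 and 11.46 in mock arrays. These arrays interleave, and the log2 change was -0.01 with an interval of -0.18 to 0.17. BCL2L1, the gene of BCL-XL, read 9.84 and 9.82 in the knockdown, against 9.87 and 9.92 in mock arrays, a change of -0.07 (adjusted p = 0.682). Its knockdown arrays were both the lower ones, and all 3 of its probe sets had negative changes. One of these, 11759514_at, had a change of -0.31 (unadjusted p = 0.0118, adjusted p = 0.185). BCL2L2, the gene of BCL-W, had a change of 0.08 (-0.10 to 0.27), with positive values on all 3 of its probe sets. BCL2 itself, a founder of the family, had a change of -0.04, and its 6 probe sets ran from -0.19 to 0.24. Its signal was at the 49.1st percentile. BCL2A1, a survival gene best known from blood cells, gave a signal at the 6.59th percentile, so its change of -0.03 (-0.40 to 0.35) rests on a dim signal.

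CFLAR was the 1 anti-apoptotic gene with a higher value at an unadjusted p under 0.05. It encodes c-FLIP, the inactive relative of caspase-8 that blocks caspase-8 at death receptors. It read 10.74 and 10.72 in the knockdown arrays, against 10.56 and 10.46 in mock arrays, so that both knockdown arrays were the higher ones. The log2 change was 0.22 (SE 0.0768, unadjusted p = 0.0295, adjusted p = 0.252). All 9 of its probe sets had a positive change, from 0.19 to 0.44, both knockdown arrays were above both mock arrays on all 9, and 8 had an unadjusted p under 0.05. At 11754126_x_at, which gave 0.44, the arrays read 6.93 and 6.96 against 6.56 and 6.45 (adjusted p = 0.0963). Several of these probe sets share probes or transcripts, so they are not 9 separate measurements. XIAP, which binds and blocks caspases directly, had a change of 0.13 (-0.12 to 0.38), with 8.91 and 9.10 in the knockdown against 8.94 and 8.81 in the mock arrays. The XIAP groups overlap.

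**Figure D2:**
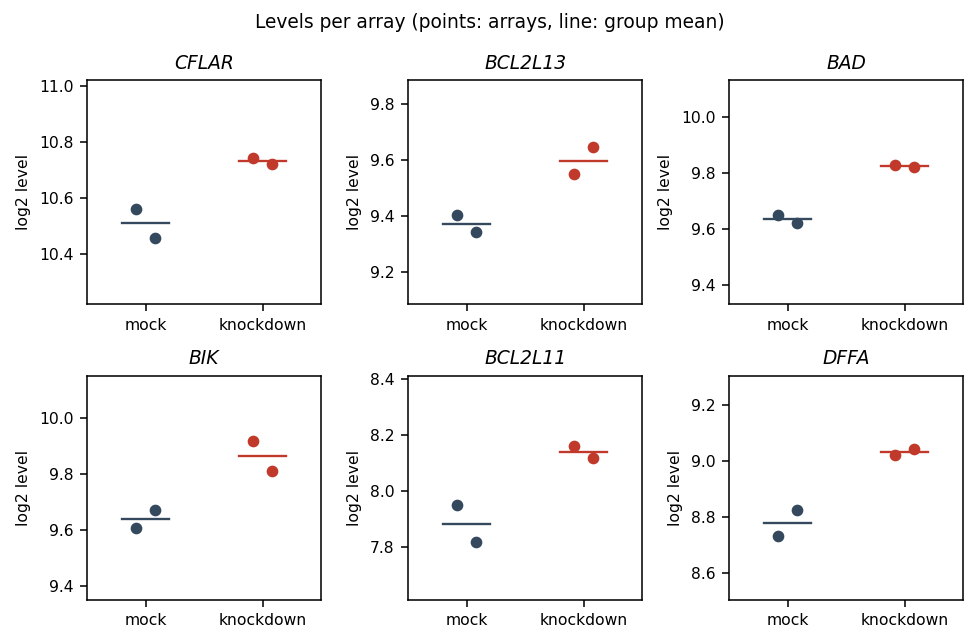
Log2 level (y axis, with the same span in every panel) of the 6 genes with an unadjusted limma p under 0.05, in 2 mock and 2 ARID1A knockdown arrays, with points for arrays and lines for group means. In each panel both knockdown points lie above both mock points, for CFLAR at 10.74 and 10.72 against 10.56 and 10.46.

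The effectors and close BCL2 relatives gave mixed values. BAK1, which forms pores in the outer mitochondrial membrane, read 8.05 and 8.08 in the knockdown, against 8.01 and 7.86 in mock arrays. Its change was 0.13 (-0.07 to 0.34), and all 5 of its probe sets were positive, from 0.00 to 0.17. BOK, another effector, had a change of -0.10 at a probe set with shared probes and of 0.11 and -0.02 at the others. BCL2L13, a BCL2 relative of the mitochondrial outer membrane that is also linked to mitophagy, read 9.55 and 9.64 in the knockdown, against 9.40 and 9.34 in mock arrays. Its groups do not overlap, and the change was 0.22 (unadjusted p = 0.0301, adjusted p = 0.253). That probe set ends in _s_at, a suffix for probes that match more than one transcript. Of its 7 probe sets 3 were positive, and at the brightest one without shared probes the change was -0.05 (adjusted p = 0.860).

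Of the 6 BH3-only members, 3 were higher at an unadjusted p under 0.05, against 9.76% of all genes, and none passed the test. The members were chosen with earlier results known, so this count is no evidence of a pattern. BIK read 9.92 and 9.81 in the knockdown arrays, against 9.61 and 9.67 in mock arrays. BIK encodes a BH3-only protein of the endoplasmic reticulum, and its change was 0.22 (SE 0.0792, unadjusted p = 0.0323, adjusted p = 0.260). Each of the 3 BIK probe sets reached an unadjusted p under 0.05, and the dimmer ones had the larger changes. At 11722953_a_at the change was 0.33 (adjusted p = 0.139), and at 11754121_a_at it was 0.46 (adjusted p = 0.0822), with 9.04 and 9.10 against 8.64 and 8.59.

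BCL2L11, the gene of BIM, which can bind every survival protein of the family, had the largest change of the 32 at its main probe set. It read 8.16 and 8.12 in the knockdown, against 7.95 and 7.82 in mock arrays, a change of 0.26 (SE 0.0818, unadjusted p = 0.0219, adjusted p = 0.229). Its 14 probe sets did not move as one, with 9 positive and 2 at an unadjusted p under 0.05, over a range of -0.14 to 0.29. BAD, a BH3-only protein that growth factor signalling holds inactive by phosphorylation, read 9.83 and 9.82 against 9.65 and 9.62. The replicates of BAD lay close together, and the change was 0.19 (unadjusted p = 0.0390, adjusted p = 0.279) and 0.18 at its second probe set (unadjusted p = 0.0487).

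The other BH3-only genes stayed near 0. BID, which caspase-8 cleaves to reach the mitochondria, read 11.24 and 11.28 in the knockdown, against 11.30 and 11.22 in mock arrays, with an interval of -0.19 to 0.19 around its change. HRK and BMF had changes of -0.01 and -0.03. HRK lay at the 43.8th percentile of signals.

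**Figure D3:**
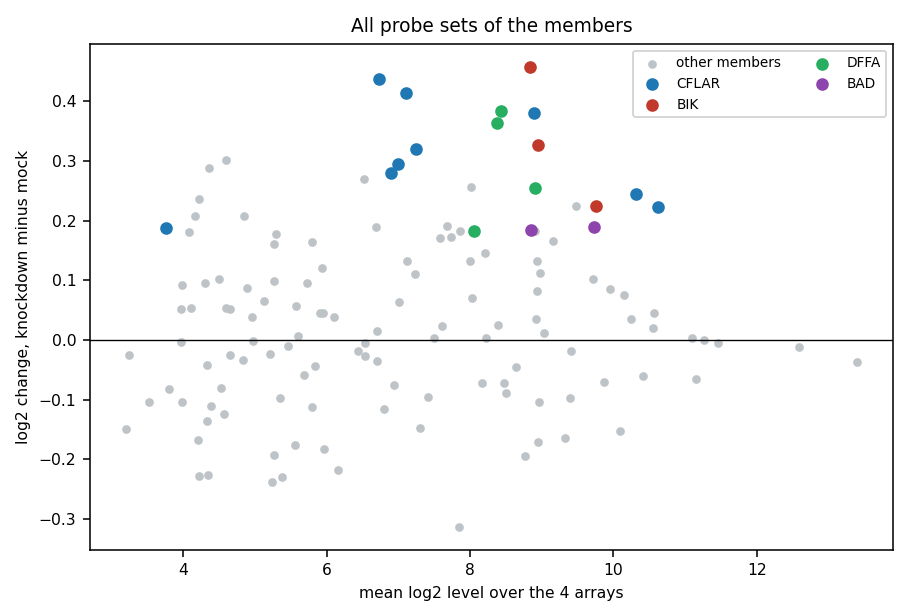
Log2 change (y axis, ARID1A knockdown minus mock) against mean log2 level over the 4 arrays (x axis) for all 134 probe sets of the 32 genes, with those of CFLAR, BIK, DFFA and BAD in colour. All 9 of CFLAR, 3 of BIK, 4 of DFFA and 2 of BAD lie above 0, between 0.18 and 0.46. BCL2L11 and BCL2L13, also at an unadjusted p under 0.05, are in grey and lie on both sides of 0. Of their probe sets 9 of 14 and 3 of 7 are positive.

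The caspases showed no difference past the test. CASP2, an initiator caspase of the stress response, had 9.18 and 9.29 in the knockdown arrays, against 9.41 and 9.39 in mock arrays, a change of -0.16 (adjusted p = 0.373). CASP6, an executioner caspase, had the opposite sign, with 9.21 and 9.26 against 9.07 and 9.07 and a change of 0.17 (adjusted p = 0.339). Neither gene's groups overlap. CASP8, the initiator at death receptors, had a change of 0.11 (-0.13 to 0.36), its groups overlap, and its 8 probe sets ran from -0.17 to 0.11. CASP9, the caspase of the apoptosome, had a change of 0.19 (-0.06 to 0.44) and one of 0.02 at its second probe set. With an array left out it ran from 0.071 to 0.31. CASP10, a relative of CASP8, had the lowest change of the 32, -0.23 (adjusted p = 0.499). That value came from knockdown replicate 2, at 5.04 against 5.47, 5.50 and 5.47 in the other arrays. The inflammatory caspase CASP4, which senses bacterial lipopolysaccharide in the cytosol, read 10.53 and 10.63 against 10.59 and 10.49, a change of 0.04 (-0.16 to 0.25).

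Adaptors and the apoptosome likewise gave no call. FADD, the adaptor of death receptors, read 10.03 and 9.99 in the knockdown arrays, against 10.14 and 10.18 in mock arrays, so the knockdown arrays were the lower ones. Its change was -0.15 (adjusted p = 0.377), with negative values on all 3 of its probe sets. APAF1, the scaffold of the apoptosome, had a change of 0.18 at its main probe set and of -0.23 (unadjusted p = 0.0352) at 11731156_x_at. CYCS, the gene of cytochrome c, read 13.34 and 13.42 against 13.43 and 13.40. Its signal was at the 99.6th percentile, its groups overlap, and its change was -0.04 (-0.22 to 0.15).

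The proteins released from mitochondria were also close to 0. DIABLO, whose protein SMAC relieves the block by XIAP, read 10.29 and 10.24 against 10.24 and 10.22, a change of 0.04 (-0.14 to 0.22). The protease gene HTRA2 had a change of -0.09, the nuclease gene ENDOG of 0.13 and AIFM1, which encodes the apoptosis-inducing factor, of 0.09. AIFM1 read 10.00 and 10.00 in the knockdown against 9.93 and 9.90 in the mock arrays (adjusted p = 0.604).

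DFFB encodes a nuclease that cuts nuclear DNA in apoptosis, and DFFA encodes its inhibitor. Their changes had opposite signs at the brightest probe sets, but the interval of DFFB included 0. DFFA, the inhibitor that caspases cleave to free the nuclease, read 9.02 and 9.04 in the knockdown, against 8.73 and 8.83 in mock arrays. Its change of 0.25 (SE 0.0757, unadjusted p = 0.0167) had the smallest p of the 32, with an adjusted p of 0.208. All 4 of its probe sets were positive, from 0.18 to 0.38, with both knockdown arrays above both mock arrays on each. At 11739517_x_at the change was 0.38 (adjusted p = 0.111) and at 11726262_a_at it was 0.36 (adjusted p = 0.131). DFFB, the nuclease, read 7.26 and 7.20 against 7.47 and 7.29, a change of -0.15 (-0.37 to 0.08), and its 7 probe sets ran from -0.18 to 0.05. With a mean-variance trend in limma's prior, a setting in which 1565 genes (8.63%) passed in place of 73, CFLAR (adjusted p = 0.0275) and DFFA (0.0437) passed, and no other member did.

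Ratios of partners within an array, which cancel a shift common to both probe sets, were set side by side for 10 pairs chosen with these results known, and were not tested. The log2 ratio of DFFA to DFFB was 0.36 and 0.44 in the knockdown arrays, relative to its mock mean, and -0.14 and 0.14 in the mock arrays. That of CFLAR to FADD was 0.36 and 0.39, against 0.071 and -0.071. CFLAR to CASP8 gave 0.22 and -0.0033 against -0.0062 and 0.0062, and here the groups overlap. The ratio of BCL2L1 to BIK was -0.34 and -0.25 in the knockdown arrays, that of BCL2L1 to BAD -0.25 and -0.27 and that of BCL2L1 to BAK1 -0.18 and -0.23. These 3 ratios were lower in both knockdown arrays than in both mock arrays. Among single genes, 23.6% had both knockdown arrays below both mock arrays and 25.8% above. The share over other gene pairs was not computed, so separation of a ratio is not read as a result. The ratio of MCL1 to BCL2L11 was -0.29 and -0.23, against -0.071 and 0.071 in the mock arrays. That of MCL1 to BAK1 was -0.13 and -0.14, against -0.075 and 0.075. XIAP to CASP9 and XIAP to DIABLO gave overlapping groups.

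**Figure D4:**
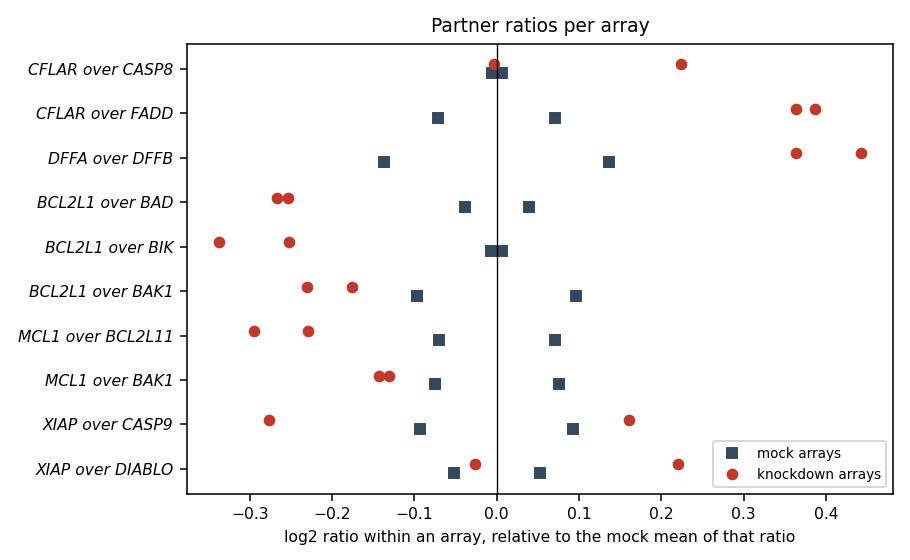
Log2 ratio of the signals of 2 partner genes within an array (x axis), relative to the mock mean of that ratio, for 10 pairs, with squares for the 2 mock and circles for the 2 ARID1A knockdown arrays. DFFA over DFFB reaches 0.36 and 0.44 in the knockdown, while BCL2L1 over BIK lies at -0.34 and -0.25 and XIAP over CASP9 overlaps.

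The sequences before the start sites are shown for 4 of the 6 genes with higher knockdown values at an unadjusted p under 0.05. No binding or chromatin was measured here. Each is the 250 bases before the RefSeq start site that lies farthest upstream (build GRCh38.p14), 5′ to 3′ along the gene. Capitals mark matches, on either strand, to the GC box (GGGCGG), the CCAAT box (CCAAT), the E-box (CACGTG), the AP-1 site (TGANTCA), the forkhead site (GTAAACA), the cyclic AMP response element (TGACGTCA) or the C/EBP-ATF element (TGATGNAA). CFLAR is at chr2:201118466-201118715, plus strand, BAD at chr11:64284705-64284954, minus strand, BCL2L11 at chr2:111120664-111120913, plus strand and DFFA at chr1:10472530-10472779, minus strand.
CFLAR: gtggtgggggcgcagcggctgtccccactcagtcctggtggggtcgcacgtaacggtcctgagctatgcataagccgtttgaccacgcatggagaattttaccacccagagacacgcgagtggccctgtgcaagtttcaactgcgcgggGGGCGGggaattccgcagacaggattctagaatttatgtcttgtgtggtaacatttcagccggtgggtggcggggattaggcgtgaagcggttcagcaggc
BAD: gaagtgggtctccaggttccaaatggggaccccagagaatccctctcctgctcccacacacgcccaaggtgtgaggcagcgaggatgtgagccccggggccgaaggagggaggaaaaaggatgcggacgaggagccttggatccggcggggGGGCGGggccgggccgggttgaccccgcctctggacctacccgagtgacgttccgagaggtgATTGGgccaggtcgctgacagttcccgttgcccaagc
BCL2L11: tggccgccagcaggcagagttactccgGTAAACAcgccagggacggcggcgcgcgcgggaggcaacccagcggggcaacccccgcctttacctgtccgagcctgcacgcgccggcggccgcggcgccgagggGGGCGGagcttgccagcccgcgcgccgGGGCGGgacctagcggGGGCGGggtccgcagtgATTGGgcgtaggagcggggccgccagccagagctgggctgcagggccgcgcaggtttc
DFFA: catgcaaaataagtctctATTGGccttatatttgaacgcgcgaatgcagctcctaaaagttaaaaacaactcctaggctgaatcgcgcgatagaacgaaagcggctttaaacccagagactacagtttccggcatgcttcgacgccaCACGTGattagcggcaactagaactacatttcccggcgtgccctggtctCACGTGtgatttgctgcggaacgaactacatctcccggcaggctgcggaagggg
The GC box stands 1 time in the windows of CFLAR and BAD and 3 times in that of BCL2L11. It is found in 42.6% of 35116 windows of all genes. Those windows cover every listed start site, several for some genes, and not only the one farthest upstream. The BCL2L11 window holds 1 forkhead site, a motif in 2.98% of all windows. The DFFA window holds 2 E-boxes, a motif in 6.34% of all windows. BAD, BCL2L11 and DFFA each hold 1 CCAAT box, found in 32.0%. None of the 7 motifs searched was in all 4 windows. Of the other genes, BIK had no window, and the window of BCL2L13 farthest upstream, not shown, held none of the 7 motifs. Over the 50 windows of the 27 members matched in the RefSeq promoter table, the GC box was in 58.0% and the CCAAT box in 34.0%, and the median GC content was 62.6%, against 58.0% for all windows.

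Other genes of the death pathways were read from a list of 43 measured genes beside the 32. By limma 0 of the 43 passed the test. At an unadjusted p under 0.05, 11 stood higher in the knockdown (25.6%, against 9.76% of all genes). Lower were 2 of the 43, against 7.25% of all genes. The change was positive for 30 (69.8%, against 48.6% of all genes), and its median was 0.06. Among the BCL2 family, BBC3, the gene of the BH3-only protein PUMA, read 8.50 and 8.79 in the knockdown, against 8.35 and 8.20 in mock arrays, a change of 0.37 (adjusted p = 0.236). PMAIP1, the gene of NOXA, a BH3-only partner of MCL1, read 8.78 and 8.82 against 8.59 and 8.50, a change of 0.25 (adjusted p = 0.212). Together with the members, 5 of 8 BH3-only genes were thus higher at an unadjusted p under 0.05, against 9.76% of all genes. This grouping was made after the values were seen. BBC3 and PMAIP1 were named because they reached that p, so the count is no evidence of a pattern. BNIP3L, a mitophagy receptor related to the family, had a change of 0.30 (adjusted p = 0.188) at its main probe set. On its 5 others the change was 0.71 to 0.85, with 0.71 (adjusted p = 0.0736) at the brightest without shared probes.

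The largest change of the list was that of CASP1, the caspase that matures interleukin-1 beta, at 5.23 and 5.51 against 4.65 and 4.75 (change 0.67, adjusted p = 0.0885). The other 8 CASP1 probe sets ran from -0.06 to 0.49, and the next brightest gave 0.15 with overlapping groups. PYCARD, the adaptor that recruits it, had a change of 0.39 (adjusted p = 0.111), the pore-forming gasdermin GSDMD of 0.31 (0.152) and GSDMB of 0.34 (0.184). TNFSF10, the gene of the death ligand TRAIL, read 5.37 and 5.18 against 4.75 and 4.68, a change of 0.56 (adjusted p = 0.0889). CASP1 and TNFSF10 were dim, at the 37.6th and 37.0th percentiles, and were not tested in the setting without dim probe sets. Its receptors TNFRSF10A and TNFRSF10B, named after their values were seen, had changes of -0.03 and 0.02. The receptor gene TNFRSF25 had a change of 0.28, its adaptor TRADD of 0.23 and the ubiquitin ligase BIRC2 of 0.19, with adjusted p of 0.244, 0.229 and 0.303. At their second probe sets TNFRSF25 gave -0.08 and TRADD 0.04, with overlapping groups, while the others of BIRC2 ran from 0.14 to 0.27. Lower at an unadjusted p under 0.05 were FASLG at -0.26 and the nucleic acid sensor ZBP1 at -0.28, also dim, at the 21.8th and 34.2nd percentiles. Their second probe sets both gave 0.07, with overlapping groups. Of these genes, CASP1 and TNFSF10 passed with each array centred on its median (adjusted p = 0.0350 and 0.0417), where 1.58% of all genes passed. Without dim probe sets PYCARD and GSDMD passed (0.0251 and 0.0389), which is 2 of 31 genes, against 9.20% of all. With all probe sets averaged BNIP3L and TNFSF10 passed (0.0158 and 0.0325), against 1.96% of all. With the mean-variance trend 7 of 43 passed, against 8.63% of all, and with unshared probe sets 0 of 42.

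**Figure D5:**
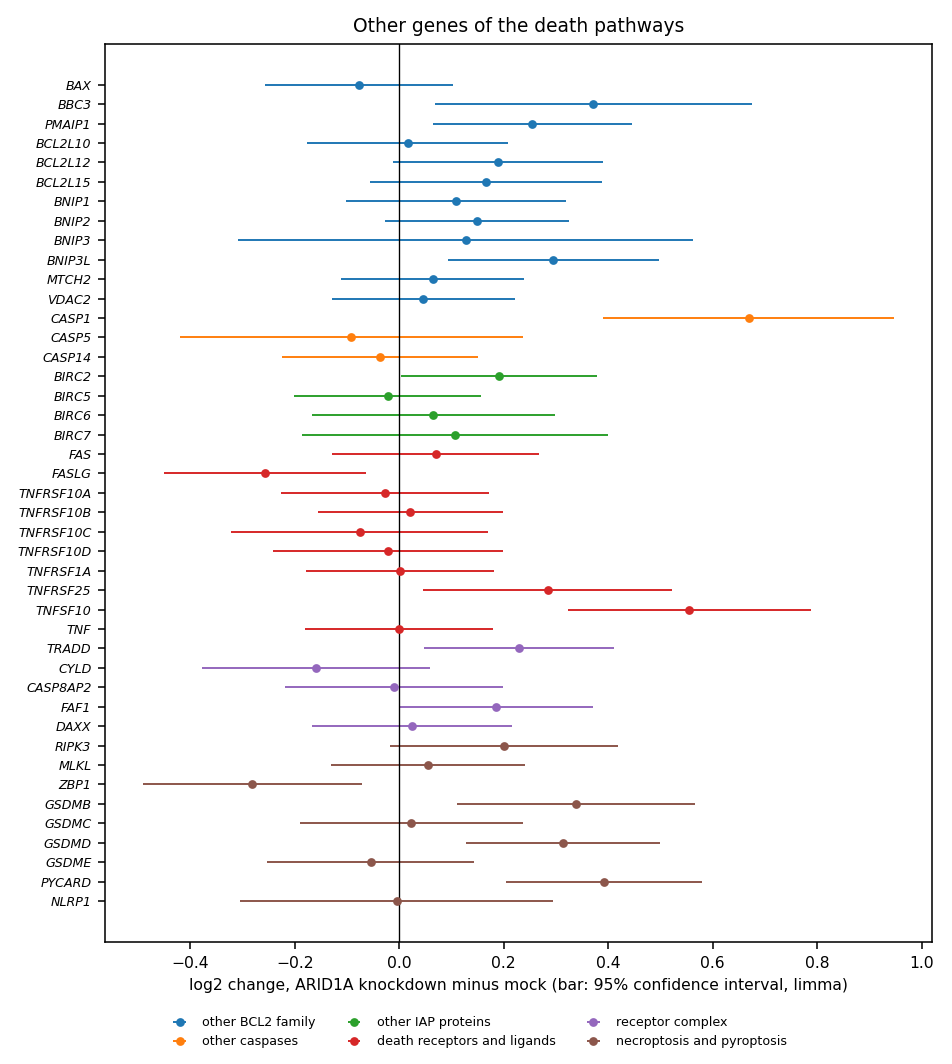
Log2 change (x axis, ARID1A knockdown minus mock) of 43 other genes of the death pathways, coloured by group, with bars for the 95% confidence interval from limma, 2 arrays a group. CASP1 at 0.67 and TNFSF10 at 0.56 lie farthest to the right, and the death receptors TNFRSF10A and TNFRSF10B lie at -0.03 and 0.02.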

How the data were processed

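Total RNA of 4 cultures was measured on Affymetrix Human PrimeView arrays, 2 a group, and groups and replicate numbers came from the sample titles. The authors deposited a log2 value for each probe set. RMA and Partek are named without role or version in the submitters' processing notes; the log2 scale was read from that and from the range of values. For genome build, filters and scan batches the sources used here give nothing. Of 49372 probe sets, 79 controls were left out, and 49293 were tested. Names came from the platform annotation, through the Entrez identifier and a RefSeq table (27 identifiers were absent from it); 44988 probe sets had 1 gene, 1832 several and 2473 none. Knockdown was compared with mock by limma 3.58.1 (lmFit and eBayes, R 4.3.3), two-sided and unpaired, with Benjamini-Hochberg adjustment over all 49293 and a threshold of 0.05, with 2 residual and 3.62 prior degrees of freedom. All p-values are from limma. Nothing says that the replicates came from separate passages or days, so p-values measure the spread between these samples. Precision is limited by having 4 arrays. Members, roles, lists and partner pairs were chosen with earlier results of these data known. Named were all members, with values in every array for those at an unadjusted p under 0.05 and for the brightest of each role, and other death genes at that p. Alternatives covered centring, quantile normalization, dim and shared probe sets, the prior, averaging of probe sets, the replicate block and leaving out arrays. The labels state no pairing, so none was used. The deviations of same-numbered arrays from their group means had a correlation of -0.20 over probe sets. With 2 arrays a group this rests on a single contrast, so it cannot exclude that same-numbered replicates were handled together.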

Additional observations from a re-analysis of the deposited data

How the results depend on the processing

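No member passed the test in any setting except the mean-variance trend, where 2 did, and of the 6 members at an unadjusted p under 0.05, CFLAR, BAD, BIK, BCL2L11 and DFFA kept a positive change in all 13 settings. ARID1A kept its direction throughout. The cause of each shift below was not tested. Higher members numbered 2 of 32 with the replicate block, no larger a share than the 6.95% of all genes, and 1 to 3 of 32 with an array left out (5.21% to 8.02% of all genes). Lower members numbered 1 under quantile normalization (8.75% of all genes), 2 of 26 without dim probe sets (11.4%), 1 without shared probe sets (6.65%), 2 with the trend (9.19%), 1 with averaged probe sets (7.55%) and 0 to 1 with an array left out (4.29% to 6.60%), none above the background share. The median of the members was 0.042 under quantile normalization, 0.084 without dim probe sets, 0.020 without shared probe sets, 0.021 with averaged probe sets and 0.040 to 0.099 with an array left out. That of the anti-apoptotic genes was 0.082 without dim probe sets, 0.020 without shared ones, 0.032 averaged and -0.0087 to 0.042 with an array left out. That of the pro-apoptotic genes was 0.044 under quantile normalization, 0.015 without shared probe sets, 0.0062 averaged and 0.038 to 0.099 with an array left out. Among the other death genes 2 passed with centring (1.58% of all genes), 2 of 31 without dim probe sets (9.20%), 7 with the trend (8.63%) and 2 averaged (1.96%). The replicate block left ARID1A at -1.78 with an adjusted p of 0.217, and 0 genes passed; crossed replicate numbers, chosen after seeing the data, gave 0 genes (ARID1A -1.78, adjusted p = 0.187). With an array left out ARID1A lay at -1.80 to -1.75 (adjusted p 0.244 to 0.521), the lone array being assumed to vary like the pair, so lost calls there say nothing about stability.

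Changes of opposite sign, all small and none past the test, were as follows. Centring gave BID 0.0023. Without shared probe sets MCL1 was 0.020, BOK 0.11, BCL2L13 -0.046 and CASP4 -0.060. With averaged probe sets BCL2 was 0.032, BCL2L14 -0.0016, BID 0.010, BMF 0.032, CASP8 -0.024, CASP4 -0.019, APAF1 -0.00067 and HTRA2 0.0023. With an array left out the ranges were -0.016 to 0.0057 for MCL1, -0.020 to 0.38 for BCL2L14, -0.040 to 0.039 for BID, -0.078 to 0.0043 for CYCS, -0.076 to 0.054 for HRK, -0.11 to 0.027 for BCL2, -0.21 to 0.16 for BCL2A1, -0.10 to 0.050 for BMF and -0.0079 to 0.097 for CASP4. Without a sign change but by over 1.5 times, leaving out an array moved XIAP (0.034 to 0.23), CASP8 (0.011 to 0.21), CASP9, CASP10 (-0.44 to -0.016), BAK1 (0.060 to 0.20), DFFB (-0.24 to -0.058), CASP2 (-0.22 to -0.11), APAF1 (0.096 to 0.26), ENDOG (0.074 to 0.19), HTRA2 (-0.12 to -0.053), BOK (-0.14 to -0.065), DIABLO (0.011 to 0.061), BCL2L1 (-0.096 to -0.046), BCL2L2 (0.042 to 0.12), BBC3 (0.22 to 0.52) and TNFRSF25 (0.18 to 0.38).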

Other observations

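Single probe sets of several death genes stood apart from the brightest probe set of the same gene, which represents the gene above; they were picked after their values were seen. BAX, the effector that acts beside BAK1, read 7.69 and 7.67 in the knockdown, against 8.22 and 8.20 in mock arrays at 11759444_x_at, a log2 change of -0.53 (limma adjusted p = 0.0630), and had a change of -0.08 at its brighter probe set, 11742537_a_at. BIRC5, the gene of survivin, had a change of -0.44 (adjusted p = 0.0994) at 11739602_a_at and of -0.02 at its brightest probe set. BNIP3L had changes of 0.71 to 0.85 on 5 probe sets dimmer than its main one, 2 of which hold identical values, and 1 of the 5 passed the test (0.73 at 11745828_x_at, adjusted p = 0.0499). Which transcripts these probe sets read is not given in the sources used here. Those ending in _x_at were counted as having shared probes.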
